A study of Mus musculus with 24 samples.

Results

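The potassium channel genes described here were the rows of a count table of the mouse lumbar spinal cord whose gene symbol is Kcn followed by letters and then a number. The rule took 92 of 55418 rows, spread over 20 subfamilies and 19 chromosomes. Every member codes for a pore-forming subunit of a potassium channel or for a subunit that modifies one. RNA came from cord segments L4 to L6 of 24 C57BL/6J mice that were 8 to 10 weeks old when the experiment began, in 8 groups of 3 animals. Both sexes were split by genotype, either wild-type or lacking Chrna7 (the alpha7 nicotinic acetylcholine receptor) in myeloid cells through a conditional knockout, and by injection of paclitaxel or vehicle. The chemotherapy drug paclitaxel, which causes painful neuropathy, was given at 1 mg/kg in 4 injections, each on alternate days. Control animals received the vehicle, a mixture of Kolliphor, ethanol and water. The cords were collected for RNA on day 7, counted from the first injection. The labels do not name the Cre line or promoter that restricts the deletion, and a deletion in myeloid cells leaves Chrna7 intact in the other cells of the cord. The comparisons below ask how the channel repertoire of the cord differs with paclitaxel, with the genotype and with sex.

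Libraries held 88812295 to 112158154 counts assigned to genes (median 94343662), and the potassium channel family took 0.604 to 0.676% of the counts in 23 of them. The remaining library, wild-type female paclitaxel replicate 3 (library 23 in the labels' numbering), went against its tissue label: its summed astrocyte markers stood at 3.78% of the median of the others, its oligodendrocyte markers at 12.3% and its sensory neuron markers at 5888%. Its skeletal muscle markers stood at 10914% (401 against 3.68 CPM), its Schwann cell markers at 946% and its motor neuron markers at 539.9%, with 2 of these 6 above and 4 below every cord. Tests and levels therefore use the other 23 libraries, called cords here, which leaves 2 animals in that group. Chrna7 itself ranged from 9.52 to 15.8 CPM (counts per 1000000 counts of the library, median 14.04) in 11 wild-type cords and from 9.05 to 14.3 CPM (median 13.01) in 12 knockout cords, so the groups overlapped in whole-cord RNA. Neuron, astrocyte, oligodendrocyte and microglia markers were detected in every cord. In RNA of a whole tissue, fewer cells of a type and less RNA per cell cannot be told apart.

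Potassium channels set the resting potential of neurons and glia and end the action potential. Voltage-gated subunits assemble in tetramers, in part with silent subunits that do not form channels alone and with cytoplasmic or membrane-spanning auxiliary subunits. Inward rectifiers hold the membrane near the potassium equilibrium and, in astrocytes, take up potassium released by active axons, whereas tandem-pore channels carry background leak current. In the cord, Kcna1 and Kcna2 are known from the juxtaparanodes of myelinated axons, beside the node of Ranvier, and Kcnj10 from astrocytes and oligodendrocytes.

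Most of the family was detected in the cord. Of the 92 members, 89 passed the filter on low counts, 71 averaged at least 1 CPM, 48 at least 10 CPM and 14 at least 100 CPM. To compare genes with each other, levels were divided by the exon length in the count table and are given as CPM per kilobase. On that scale the family summed to 1009 CPM per kilobase (range over cords 942 to 1089), the 3 highest members made up 33.5% of the sum and the 15 highest 71.6%. The median tested member stood at 2.48 CPM per kilobase against 1.53 over all 25372 genes tested, and 25% of the 92 members reached 10 CPM per kilobase against 19.8% of the genes tested.

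**Figure D1:**
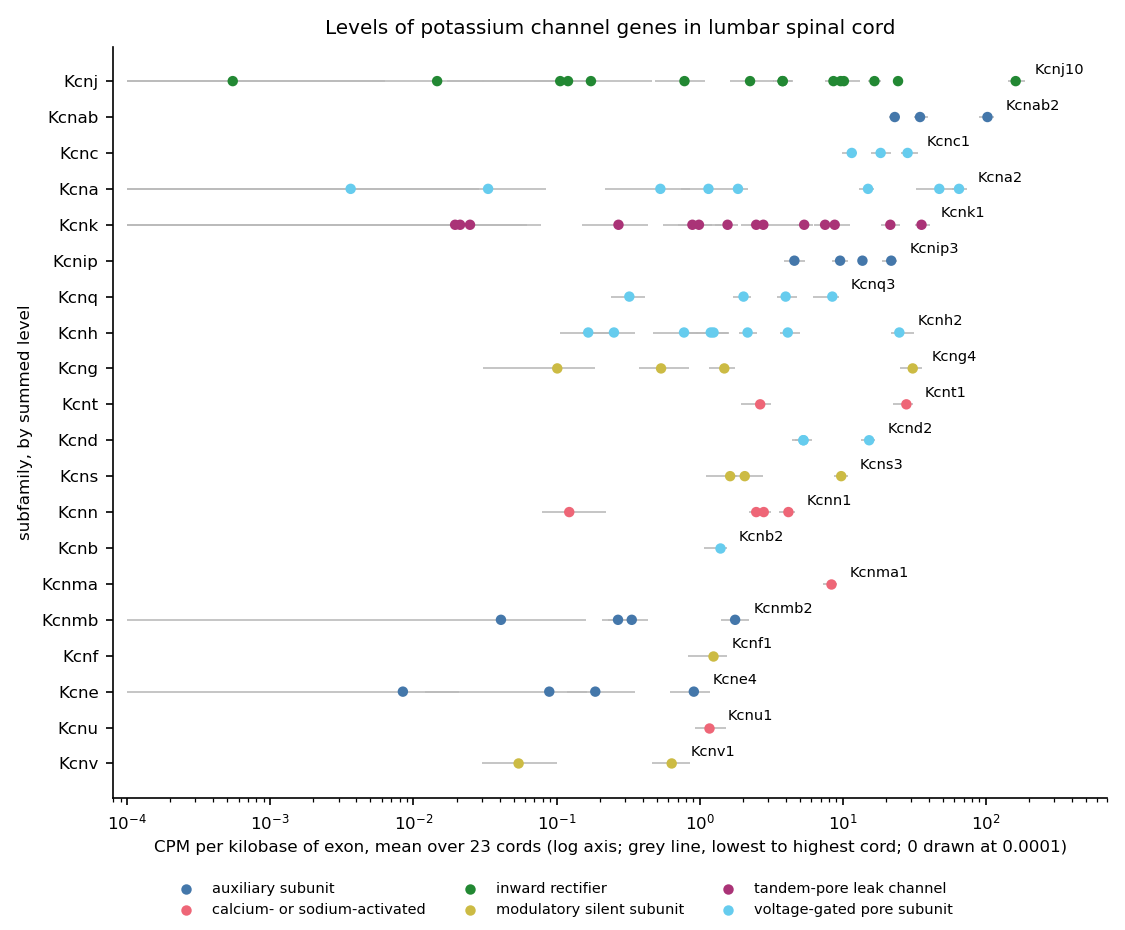
Mean level of the potassium channel genes reported, in 23 cords, in CPM per kilobase of exon on a log axis, with 1 row per subfamily and a colour per role; grey lines run from the lowest to the highest cord. Kcnj10 lies farthest to the right at 161 CPM per kilobase, and the highest member drawn in each row is named.

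Kcnj10, the inward rectifier of astrocytes and oligodendrocytes, was the most abundant member per kilobase, at 161 ± 11.5 CPM per kilobase (SD, n = 23). In CPM it ranged from 775 to 1014 with a mean of 871 ± 61.9 (SD, n = 23). Its lowest cord lay above the highest cord of the next member, Kcnab2, so its place at the top did not depend on the cord. Kcnab2, the cytoplasmic beta subunit that binds Kcna channels, followed at 102 ± 7.08 CPM per kilobase (SD, n = 23). Also among the highest were the axonal subunits Kcna2 at 64.8 ± 3.82 CPM per kilobase and Kcna1 at 47.1 ± 7.14 CPM per kilobase. Kcna2 exceeded Kcna1 in 23 of 23 cords, and Kcna1 exceeded Kcnk1 in 21. Further down, neighbours in the order mostly overlapped: Kcnk1 at 35.4 CPM per kilobase was above Kcnab3 at 34.6 CPM per kilobase in 15 of 23 cords.

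By role, 30 voltage-gated pore subunits summed to 369 CPM per kilobase, which was 36.6% of the family. The Kcnc subfamily, the channels of fast-spiking neurons, held 133 ± 8.96 CPM per kilobase and the Kcna subfamily 130 ± 10.5 (SD, n = 23 for both). Among the Kcnc members, Kcnc1 stood at 28.3, Kcnc4 at 18.4 and Kcnc2 at 11.5 CPM per kilobase. Kcnq3, a subunit of the M-current that restrains repetitive firing, stood at 8.43 CPM per kilobase. Kcnh2, the ERG channel, led the Kcnh subfamily at 24.8 CPM per kilobase, ahead of Kcnh1 at 4.12. Among subunits of the somatodendritic A-type current, Kcnd2 stood at 15.3 and Kcnd3 at 5.31 CPM per kilobase. The delayed rectifier Kcnb2 stood at 1.38 CPM per kilobase. Kcna6 stood at 14.98 CPM per kilobase, but 39.6% of its exon bases are shared with another gene.

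The 15 inward rectifiers summed to 241 ± 12.3 CPM per kilobase (SD, n = 23), of which Kcnj10 made up 66.7%. Kcnj16, which joins Kcnj10 in glial channels, was the second of them at 24.3 ± 0.887 CPM per kilobase. Kcnj3, a G-protein-activated subunit, stood at 16.6 CPM per kilobase with 31.1% of its exon bases shared, and its partners Kcnj9 and Kcnj6 stood at 8.59 and 0.782. Kcnj11, the pore of ATP-sensitive channels, stood at 9.65 CPM per kilobase and Kcnj14 at 10.2.

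The 15 auxiliary subunits summed to 213 CPM per kilobase, or 21.1% of the family. After Kcnab2, the beta subunits Kcnab3 and Kcnab1 stood at 34.6 and 23.04 CPM per kilobase, and the calcium-binding partners of Kcnd channels, Kcnip3 and Kcnip4, at 21.8 and 13.7. The auxiliary subunits of the large-conductance calcium-activated channel were low, with Kcnmb2 at 1.77 and Kcnmb1 at 0.335 CPM per kilobase, and of the Kcne single-pass subunits Kcne4 led at 0.909 and Kcne2 followed at 0.186.

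The 14 tandem-pore channels summed to 87.6 ± 3.79 CPM per kilobase (SD, n = 23), with Kcnk1 at 35.4, Kcnk9 at 21.4 and Kcnk3 at 8.77 CPM per kilobase. The 8 calcium- or sodium-activated pore subunits, with the related Kcnu1 among them, summed to 49.4 CPM per kilobase. Kcnt1, a sodium-activated channel, made up most of that at 27.8 CPM per kilobase, ahead of the large-conductance pore Kcnma1 at 8.24, the small-conductance Kcnn1 and Kcnn3 at 4.16 and 2.80, Kcnt2 at 2.64 and Kcnu1 at 1.15. Of the 10 silent modulatory subunits, which summed to 48.2 CPM per kilobase, Kcng4 alone made up 63.8% at 30.7 CPM per kilobase. Kcns3 followed at 9.73 CPM per kilobase, and Kcns1, Kcng1, Kcnf1, Kcnv1 and Kcnv2 stood at 2.06, 1.48, 1.24, 0.637 and 0.0543.

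At the other end of the order, 21 members averaged under 1 CPM. Kcnj1, the renal rectifier, was at 0 counts in 21 of 23 cords, Kcna7 in 18 and Kcne1 in 5, and these 3 were not tested. A count of 0 allows up to 0.0318 CPM at the median depth, on counting error only (3 counts of the library). Kcnk18 stood at 0.0678 ± 0.0583 CPM (SD, n = 23) with 1 cord at 0, and Kcnj4 at 0.228 ± 0.0978 CPM. Both belong to the members that were far higher in library 23, described below.

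Members of related function lay close together in the genome in several places. On chromosome 1, Kcnj9 (172320501 to 172329318) ends 11891 bases before Kcnj10 (172341210 to 172374085). On chromosome 6, Kcna1 (126640397 to 126646384) lies 61944 bases from Kcna6. On chromosome 3, Kcna3, Kcna2 (107101146 to 107115005) and Kcna10 lie in that order, with 2 other genes between Kcna3 and Kcna2. Levels differed within these clusters: Kcna2 stood at 64.8 CPM per kilobase against 0.531 for Kcna3 and 0.0332 for Kcna10. Coordinates are those of the count table, on GRCm38.

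The sequence just before the transcription start of the members also varied. Of the 92 members, 67 were matched to a RefSeq promoter of GRCm38.p6, and the 250 bases before the start were searched for the dinucleotide CG, which reads alike on both strands. The median was 8.0 CG in members against 6.0 over 32851 RefSeq promoters, and 46.3% of the members' windows against 37.8% of all windows held at least 10. Each member gave 1 window, at the RefSeq start nearest its 5′ end with no limit on distance. All promoters were counted without that choice, so the sets were not matched. Among matched members at 10 CPM or more, 51.5% of 33 windows held at least 10 CG, among those from 1 to under 10 CPM 56.2% of 16 did, and among those under 1 CPM 27.8% of 18 did. The share thus did not rise steadily with the level. The following 4 windows are shown because they hold no exon of the count table and belong to the members highest per kilobase in cord (Kcnj10, Kcnk1) and highest by ratio in library 23 (Kcnmb1, Kcnj4) among such windows. Each is written 5′ to 3′ on the strand of the gene, with CG in capitals.
Kcnj10, chr1:172340960-172341209, plus strand: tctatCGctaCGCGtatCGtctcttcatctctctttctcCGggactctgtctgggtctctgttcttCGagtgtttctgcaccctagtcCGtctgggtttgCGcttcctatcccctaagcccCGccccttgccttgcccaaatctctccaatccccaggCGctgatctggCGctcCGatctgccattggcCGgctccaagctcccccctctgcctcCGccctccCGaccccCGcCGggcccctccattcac
Kcnk1, chr8:125994852-125995101, plus strand: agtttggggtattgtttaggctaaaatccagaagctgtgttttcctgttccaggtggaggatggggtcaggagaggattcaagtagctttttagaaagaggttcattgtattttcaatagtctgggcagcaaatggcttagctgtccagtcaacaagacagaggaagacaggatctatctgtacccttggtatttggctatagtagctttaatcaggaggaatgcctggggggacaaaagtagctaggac
Kcnmb1, chr11:33962763-33963012, plus strand: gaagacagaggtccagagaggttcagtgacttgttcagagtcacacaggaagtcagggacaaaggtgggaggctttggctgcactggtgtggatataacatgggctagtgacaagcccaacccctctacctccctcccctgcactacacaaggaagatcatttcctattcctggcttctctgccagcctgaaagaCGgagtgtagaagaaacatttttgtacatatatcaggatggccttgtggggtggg
Kcnj4, chr15:79505242-79505491, minus strand: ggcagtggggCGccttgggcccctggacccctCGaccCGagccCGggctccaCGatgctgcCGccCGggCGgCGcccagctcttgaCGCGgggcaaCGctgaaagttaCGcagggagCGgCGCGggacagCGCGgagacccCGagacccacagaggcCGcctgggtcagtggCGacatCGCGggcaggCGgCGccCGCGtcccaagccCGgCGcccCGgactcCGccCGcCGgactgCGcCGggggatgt
The Kcnj10 window held 17 CG and that of Kcnj4 35, whereas the Kcnmb1 window held 1 and the Kcnk1 window 0. The number of CG thus did not follow the level in these windows: Kcnk1 stood at 35.4 CPM per kilobase and Kcnj4 at 0.106. A dinucleotide count is a description of these letters, and methylation and factor binding were not measured.

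Paclitaxel was compared with vehicle over all 12 vehicle and 11 paclitaxel cords, as the average of the differences within genotype and sex. No member passed edgeR's quasi-likelihood test at an adjusted p under 0.05 (0 of 89), with 5 of 25372 genes called in all (0.0197%). At an unadjusted p under 0.05 there were 11 members, where 10.2% of all genes had one. With DESeq2 1 member passed (Kcna1), among 167 of 25372 genes called in all, and with limma voom 0. Of the 89 members, 38 had a positive and 51 a negative log2 fold change (log2FC), with a median of -0.0075 against 0.0061 over all genes tested. By role, 19 of 29 voltage-gated pore subunits and 8 of 14 inward rectifiers were on the negative side and 9 of 14 tandem-pore channels on the positive side.

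Kcna1 had the smallest p of the family. It stood at 208 CPM in the lowest, 249 in the median and 295 in the highest of 12 vehicle cords, and at 155, 203 and 256 CPM in the lowest, median and highest of 11 paclitaxel cords. The means were 247 ± 22.9 CPM (SD, n = 12) and 201 ± 27.7 CPM (SD, n = 11). The groups overlapped, but 10 of 11 paclitaxel cords lay under the vehicle median and 6 lay under every vehicle cord, while 5 vehicle cords lay above every paclitaxel cord. The log2FC was -0.28 (SE 0.069) with an edgeR adjusted p of 0.184. DESeq2 gave an adjusted p of 0.0169, and leaving out each cord in turn gave edgeR adjusted p from 0.0709 to 0.430. Without the filter on low counts edgeR also called Kcna1, at the same log2FC with an SE of 0.030 and an adjusted p of 2.4e-17, in a fit that called 0.808% of 41809 genes. With a stricter filter, a mean of at least 1 CPM, the edgeR adjusted p was 0.127. Kcna1 also had the widest spread within groups of the 48 members at 10 CPM or more, with an SD of 0.17 on the log2 scale against a median of 0.093 in those members and 0.078 over 10755 genes at that level.

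The lower Kcna1 values were present in both genotypes. In wild-type mice the 5 paclitaxel cords had 256, 209, 214, 155 and 203 CPM, and the 6 vehicle cords had a mean of 256 ± 23.3 CPM (SD, n = 6). The log2FC was -0.28 (SE 0.10, edgeR adjusted p 0.531). In knockout mice the mean was 239 ± 21.0 CPM with vehicle and 196 ± 20.4 CPM with paclitaxel (SD, n = 6 each), with a log2FC of -0.28 (SE 0.095) and an edgeR adjusted p of 0.282. Without the filter on low counts Kcna1 passed in both genotypes, with edgeR adjusted p of 2.3e-07 in wild-type and 6.2e-09 in knockout mice, where 0.608 and 1.12% of all genes passed. The log2FC was the same there, but the SE was 0.044 and 0.042 in place of 0.10 and 0.095. These calls thus rest on a smaller estimate of the spread than the fit with the filter gave. Leaving out wild-type male paclitaxel replicate 2, the lowest cord, moved the wild-type value to -0.22 and that over all animals to -0.25 on the log2 scale. Markers of neurons summed to 7264 to 8449 CPM in vehicle and 7532 to 9397 CPM in paclitaxel cords, those of oligodendrocytes to 25340 to 27644 and 23785 to 28361 CPM, and those of astrocytes to 4979 to 5738 and 4790 to 5607 CPM. All genes of these 3 lists were detected in every cord, and their part in the Kcna1 values was not tested.

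Kcna2, the partner of Kcna1 beside the node, stood at 737 CPM in the lowest, 777 in the median and 877 in the highest vehicle cord, and at 691, 744 and 805 CPM in the paclitaxel cords. These ranges overlapped widely, and the log2FC was -0.070 (SE 0.031, edgeR adjusted p 0.435). The summed level of the Kcna subfamily was 137 ± 7.99 CPM per kilobase with vehicle (n = 12) and 124 ± 8.61 with paclitaxel (n = 11, SD). This sum includes Kcna1, so it repeats the Kcna1 difference and is not a separate result. Kcnj10 stood at 880 ± 68.7 CPM with vehicle and 862 ± 55.3 CPM with paclitaxel, a log2FC of -0.032 (edgeR adjusted p 0.804) that was smaller than the spread between animals.

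**Figure D2:**
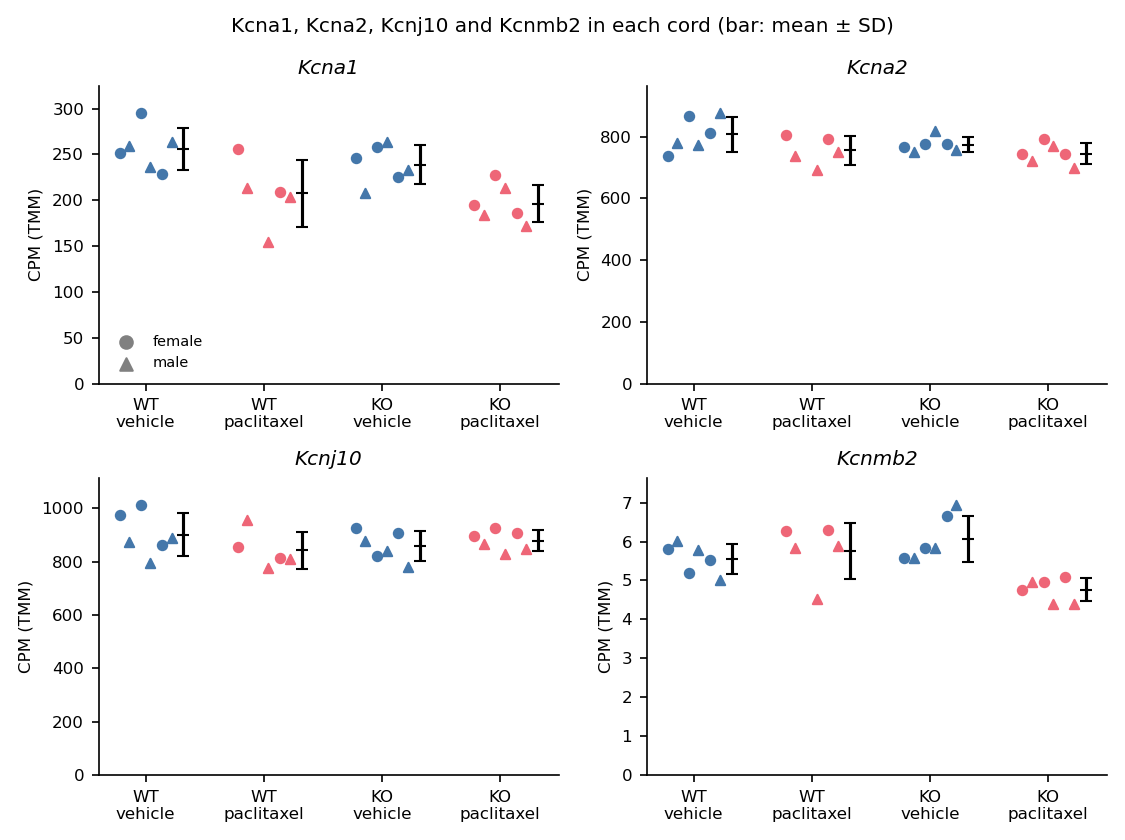
Kcna1, Kcna2, Kcnj10 and Kcnmb2 in each of 23 cords, in CPM scaled by TMM factors, by genotype (WT, wild-type; KO, knockout) and treatment; circles are females, triangles males, and bars give the mean ± SD. Kcna1 paclitaxel cords sit lower than vehicle cords in both genotypes with overlap, and Kcnmb2 groups separate in knockout animals, where paclitaxel cords reach 5.08 CPM at most and vehicle cords start at 5.57 CPM.

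The other members of small p had smaller differences or were scarce. Kcng3, a silent subunit at 0.339 CPM, had a log2FC of -0.68 (edgeR adjusted p 0.222) from 9 to 60 counts a cord. Kcnj2, a strong inward rectifier, had -0.10, Kcnb2 -0.10 and Kcnmb2 -0.14 on the log2 scale, with edgeR adjusted p from 0.338 to 0.414. Kcnj6 stood at 6.50 ± 1.22 CPM with vehicle and 5.39 ± 1.00 CPM with paclitaxel, a log2FC of -0.25 (edgeR adjusted p 0.420, and 0.0174 without the filter on low counts). Kcnab3, on the positive side, stood at 96.5 ± 4.78 CPM with vehicle and 102 ± 6.74 CPM with paclitaxel, a log2FC of 0.068 (edgeR adjusted p 0.426). In each of these the ranges of the vehicle and paclitaxel cords overlapped: no member, and 0.0% of all genes, separated over all animals.

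**Figure D3:**
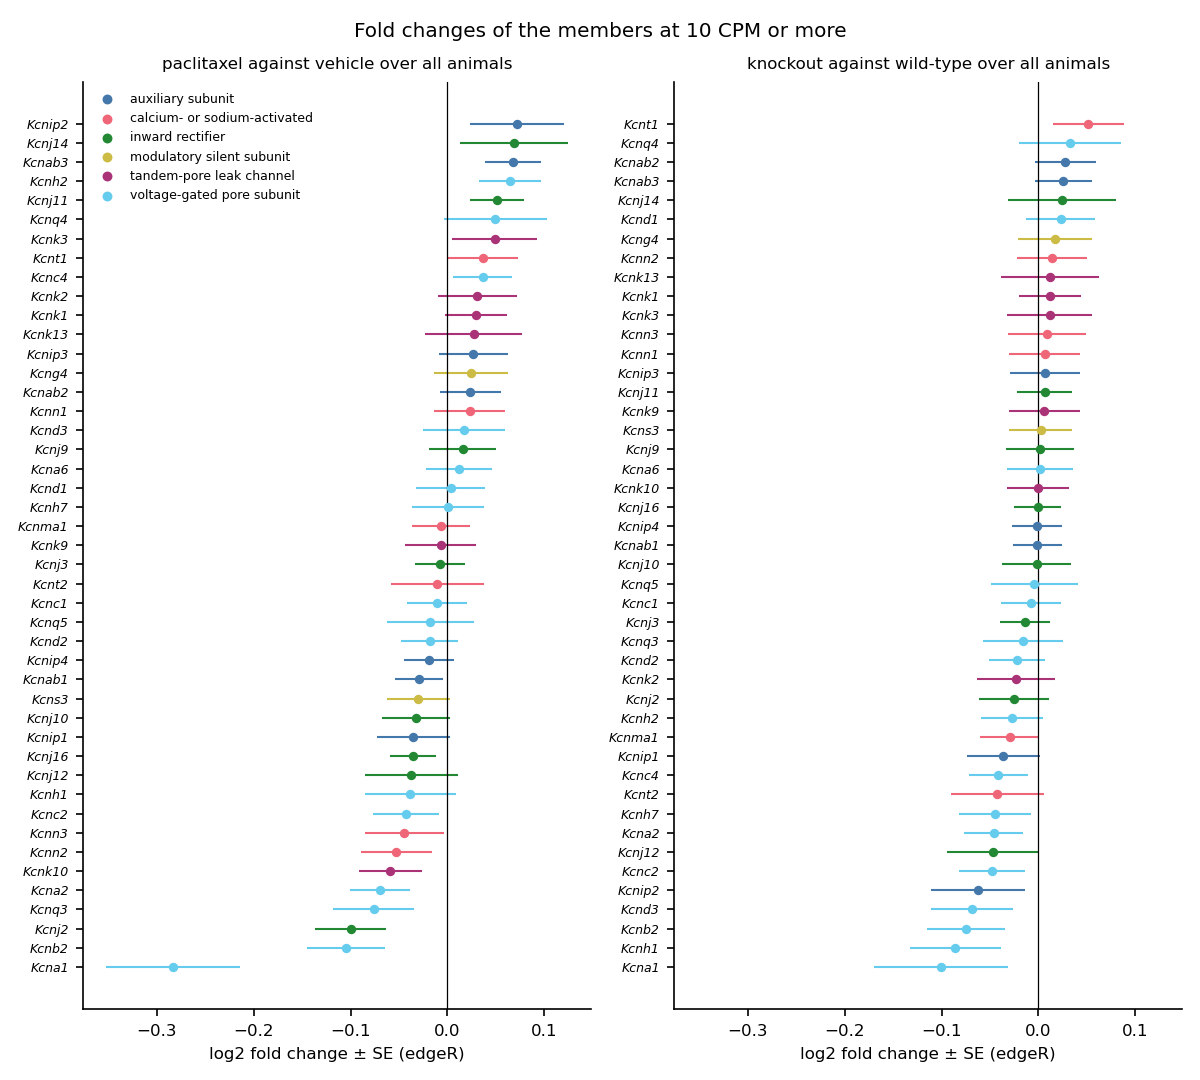
Log2 fold change from edgeR, ± an SE derived from the F statistic of its test, for the members reported at 10 CPM or more. Paclitaxel against vehicle is on the left and knockout against wild-type on the right, coloured by role and ordered within each panel. On the left Kcna1 stands apart at -0.28 and the others lie between -0.10 and 0.072; on the right all lie between -0.10 and 0.052, and no member passed the test in either panel.

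Within wild-type mice (6 vehicle and 5 paclitaxel cords) 0 of 89 members passed, and 0 of all genes (0.0%). There were 5 members at an unadjusted p under 0.05 against 7.97% of all genes, and 0 passed with DESeq2 or limma voom. After Kcna1, the smallest p belonged to Kcnj6. Its 5 paclitaxel cords had 5.82, 5.44, 7.63, 3.70 and 5.24 CPM, and its 6 vehicle cords ranged from 6.48 to 8.34 CPM (median 7.23). A single paclitaxel cord, the male with 7.63 CPM, lay inside the vehicle range. The log2FC was -0.39 (SE 0.15, edgeR adjusted p 0.550), and without the filter on low counts it passed (edgeR adjusted p 0.00886). Kcnh2 had 0.11 on the log2 scale (edgeR adjusted p 0.565), and Kcng3 had -0.64 (edgeR adjusted p 0.610). By sign, 35 members were positive and 54 negative, where the median log2FC over all genes tested was 0.0056. Of the silent subunits 9 of 10 were negative and of the voltage-gated pore subunits 20 of 29, while the other roles were evenly split. Only 2 of the 10 silent subunits averaged 10 CPM or more.

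Within knockout mice (6 cords per treatment) 0 of 89 members passed, with 6 of all genes called (0.0236%). There were 9 members at an unadjusted p under 0.05 against 11.3% of all genes. With DESeq2 1 member passed (Kcnmb2), among 137 of 25372 genes called in all, and with limma voom 0. Kcnmb2, an auxiliary subunit that inactivates the large-conductance calcium-activated channel (chromosome 3, 31902507 to 32200180), had the smallest p. It stood at 5.57 CPM in the lowest, 5.83 in the median and 6.95 in the highest knockout vehicle cord, and at 4.39, 4.85 and 5.08 CPM in the knockout paclitaxel cords. The groups did not overlap, and of all genes tested 0.225% were separated in this direction and 0.185% in the other. No other member separated here. The log2FC was -0.35 (SE 0.082) with an edgeR adjusted p of 0.185. DESeq2 gave an adjusted p of 0.0121, and edgeR gave 0.0300 without knockout male vehicle replicate 1 and up to 0.541 without others, and 0.0167 without the filter on low counts. That same exclusion raised the calls over all genes from 6 to 332.

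In wild-type mice the groups overlapped for Kcnmb2: the mean was 5.56 ± 0.385 CPM with vehicle (SD, n = 6) and 5.76 ± 0.720 CPM with paclitaxel (SD, n = 5). The difference between the genotypes' responses was -0.42 on the log2 scale and did not pass (edgeR adjusted p 0.496). Kcnb2 in knockout mice had a log2FC of -0.20 (edgeR adjusted p 0.205, and 0.0397 without the filter), and the scarce Kcne2 and Kcng3 had -0.65 and -0.72 (edgeR adjusted p 0.306 and 0.324).

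Knockout was compared with wild-type over all animals (12 and 11 cords), and 0 of 89 members passed, with 3 of all genes called (0.0118%). At an unadjusted p under 0.05 there were 2 members, Kcnk15 and Kcnj6, against 3.36% of all genes, and 0 passed with DESeq2 or limma voom. Kcnk15 is a tandem-pore subunit at 0.0424 CPM that was at 0 counts in 6 cords, so its log2FC carries little information and is not given. Kcnj6 stood at 6.52 ± 1.39 CPM in wild-type (SD, n = 11) and 5.46 ± 0.832 CPM in knockout cords (SD, n = 12), with a log2FC of -0.23 (edgeR adjusted p 1.00). Kcna1 had -0.10, Kcna2 -0.046, Kcnb2 -0.075, Kcnh1 -0.086 and Kcnd3 -0.069 on the log2 scale, and the less abundant Kcnk12 and Kcna5 -0.29 and -0.12, all at an edgeR adjusted p of 1.00. Without the filter on low counts Kcnk12 passed (edgeR adjusted p 0.00732), as did 0.237% of all genes. The SE of Kcnk12 was 0.067 in that fit and 0.17 with the filter. From library totals it had a median of 4.83 CPM over the cords and a range of 3.82 to 10.9 CPM. Of 29 voltage-gated pore subunits, 24 were on the negative side with a median of only -0.022, and of all 89 members 57 were. The median over all genes tested was -0.00072. Kcnj10 stood at 874 ± 77.9 CPM in wild-type and 869 ± 46.2 CPM in knockout cords, a log2FC of -0.0018 whose sign changed with the processing.

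Under vehicle alone 0 of 89 members passed and 2 genes were called in all (0.00788%). There were 5 members at an unadjusted p under 0.05 against 5.2% of all genes. The smallest p was that of Kcnj6, with 7.32 ± 0.785 CPM in wild-type and 5.69 ± 1.02 CPM in knockout vehicle cords (SD, n = 6 each), a log2FC of -0.37 (SE 0.14, edgeR adjusted p 0.911). It passed without the filter on low counts (edgeR adjusted p 0.0167), as did 0.265% of all genes. The wild-type cords ranged from 6.48 to 8.34 CPM and the knockout cords from 4.01 to 6.55 CPM, so they overlapped only at their edges. Kcnh1 had -0.14, Kcnk5 -0.26 and the scarce Kcne3, on the positive side, 0.79 on the log2 scale, at the same adjusted p. The fifth was Kcnk15, which was at 0 counts in 6 cords and is not given a value here either.

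Under paclitaxel 0 of 89 members passed and 1 gene was called in all (0.00394%), with 5 members at an unadjusted p under 0.05 against 6.18% of all genes. Kcnmb2 had -0.29, Kcnb2 -0.17, Kcnh7 -0.14, Kcnma1 -0.11 and Kcnd1 0.12 on the log2 scale, all at an edgeR adjusted p of 0.790. Without the filter on low counts Kcnk12 passed here, at -0.51 (edgeR adjusted p 1.2e-04), as did 0.514% of all genes. The SE of Kcnk12 was 0.098 in that fit and 0.25 with the filter, where it did not pass. The vehicle, paclitaxel, genotype and interaction contrasts share cords, so the recurrence of Kcnmb2, Kcnb2 and Kcnj6 among them is not independent.

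The interaction of genotype and treatment called 0 of 89 members and 0 of all genes (0.0%), with 7 members at an unadjusted p under 0.05 against 8.41% of all genes. After Kcnmb2, Kcnma1, the pore to which Kcnmb2 binds, had a difference of responses of -0.16 on the log2 scale, Kcnh7 -0.19 and Kcnd1 0.19, all at an edgeR adjusted p of 0.512. Kcne3, at 2 to 27 counts a cord, had the largest of the named differences at -1.35 (SE 0.53, edgeR adjusted p 0.522). Kcna1, with nearly equal fold changes in the genotypes, had a difference of -0.0035 (SE 0.14, edgeR adjusted p 0.998). DESeq2 and limma voom called 0 members in the genotype comparisons and in the interaction.

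Between males and females (12 and 11 cords) 0 of 89 members passed, although 233 genes were called in all (0.918%), and DESeq2 and limma voom called 0 members. There were 10 members at an unadjusted p under 0.05 against 13.2% of all genes. Kcne3, at 0.158 CPM, had -0.88 on the log2 scale for males against females (edgeR adjusted p 0.106). Kcnh2 stood at 116 ± 6.70 CPM in females (n = 11) and 124 ± 12.5 CPM in males (n = 12, SD), a log2FC of 0.10 (edgeR adjusted p 0.137). Of 14 inward rectifiers, 4 had an unadjusted p under 0.05, all lower in males: Kcnj9 at -0.087, Kcnj3 at -0.060, Kcnj10 at -0.081 and Kcnj11 at -0.063 on the log2 scale, with edgeR adjusted p from 0.258 to 0.329. Kcnj10 stood at 900 ± 60.9 CPM in females and 845 ± 51.8 CPM in males. The 6 astrocyte markers were all on the negative side as well (median -0.079, 1 at an unadjusted p under 0.05) and summed to 4886 to 5738 CPM in females and 4790 to 5377 CPM in males. Their part in the rectifier values was not tested.

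Members that assemble into the same channel were then compared across the 23 cords, on log2(CPM + 0.5), in 8 pairs, of which 5 are described. Kcna1 and Kcna2 went together, with Pearson's r 0.81 and Spearman's rho 0.75 (permutation test, Benjamini-Hochberg adjusted over the 8 pairs, p 8e-05, the smallest these permutations can give, and 7.2e-04). Without the 2 cords farthest from the median of Kcna1, r was 0.72, and within groups, on deviations from the group means, it was 0.68. Over all 1128 pairs of the 48 members at 10 CPM or more the median r was 0.076 with quartiles of -0.18 and 0.33, and the cords share their scaling and cell makeup.

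The other pairs described did not pass over all 23 cords. The glial rectifiers Kcnj10 and Kcnj16 had r 0.22 (permutation test, adjusted p 0.435), and 0.43 within groups (adjusted p 0.0638). Kcna2 and Kcnab2 had r -0.26 (adjusted p 0.368), which was -0.59 without 2 cords (adjusted p 0.0130) and 0.036 within groups. Kcnj3 with Kcnj6 had r 0.13 and Kcnma1 with Kcnmb4 r -0.14 (permutation test, adjusted p 0.544 for both). Kcnj6 averaged 5.97 CPM and Kcnmb4 0.893 CPM, below the 10 CPM of the background pairs, so counting noise limits these r more.

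**Figure D4:**
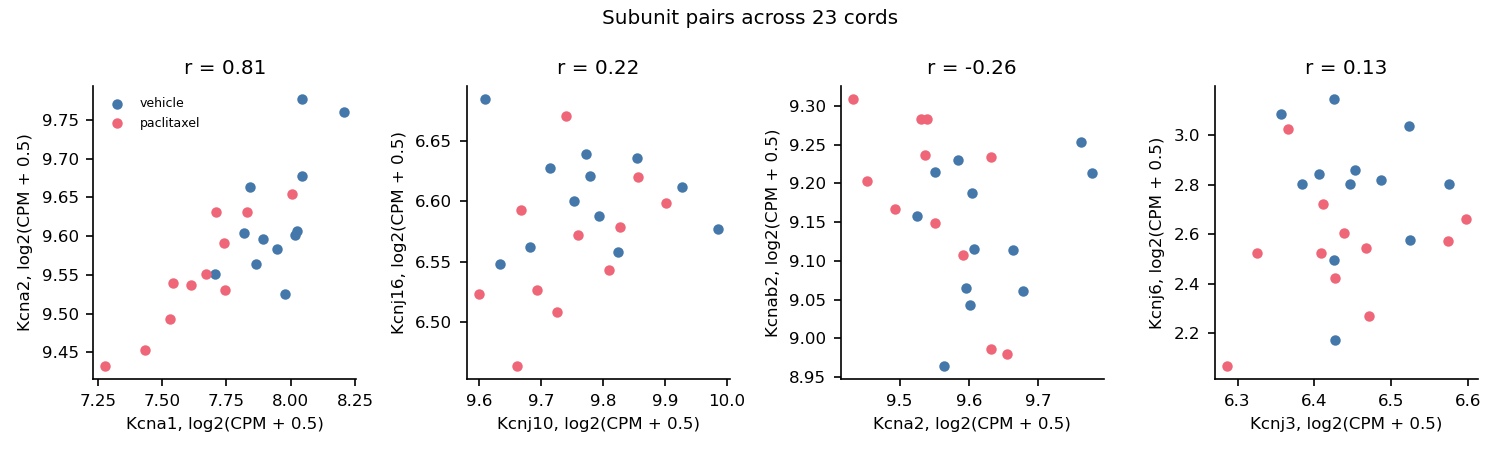
Levels of 4 subunit pairs across 23 cords, each point a cord, on log2(CPM + 0.5), with vehicle and paclitaxel in colour and Pearson's r above each panel. Kcna1 and Kcna2 spread along a line (r 0.81), while the other pairs scatter, with r from -0.26 to 0.22.

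The cord lowest in Kcna1, wild-type male paclitaxel replicate 2, was the lowest of the 23 cords for 14 of the 48 members at 10 CPM or more (29.2%), where it was the lowest for 16.8% of 10755 genes at that level. In it Kcna1 stood at 155, Kcna2 at 691 and Kcnq3 at 91.2 CPM, each the lowest value of all cords. Knockout male vehicle replicate 3 was lowest for 11 members (22.9% against 15.4% of genes). The summed neuron markers were the highest of all cords in wild-type male paclitaxel replicate 2, at 9397 CPM. So were its sensory neuron markers, at 105 CPM, and its motor neuron markers, at 334 CPM. In knockout male vehicle replicate 3 the neuron markers were the lowest, at 7264 CPM. Its sensory and motor neuron markers, at 60.7 and 261 CPM, lay inside the range of the other cords. The part of these markers in the members' values was not tested.

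Library 23 was set beside the cords as a single library without replicates, so its values are a description with no test. CPM here come from library totals without TMM factors, for library 23 and cords alike. Of 78 members at 1 CPM or more in library 23 or in the median cord, 20 lay at least 2 times above the highest cord, where 9.49% of 16694 genes did, and 19 lay at least 2 times below the lowest cord, where 13% did. These are 25.6% and 24.4% of the members. A gene could reach 1 CPM through library 23 alone or through the cords alone, so these counts depend in part on that rule. Kcnk18, Kcnj4, Kcnn4 and Kcng3 entered through library 23 alone and are among those above. Their cord medians were 0.0630, 0.208, 0.608 and 0.342 CPM. Inward rectifiers were mostly lower, with 7 of 11 past that limit below and 2 above and a median log2 ratio of -2.11, whereas voltage-gated pore subunits went both ways, with 7 of 28 above and 4 below.

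The most abundant member of the cord was among the lowest by ratio in library 23. Kcnj10 had 82.3 CPM there against a cord median of 866 CPM (9.50%), and its partner Kcnj16 9.41 against 94.9 CPM (9.91%). Kcnj14, Kcnj6, Kcnj9 and Kcnj11 stood at 9.30, 10.4, 12.9 and 22.98% of their cord medians. Kcnab3 had the lowest ratio, with 4.91 CPM against 97.7 CPM (5.02%), followed by Kcnd2 at 5.59% and the tandem-pore channel Kcnk9 at 5.67%. Kcnh4 and Kcng4 stood at 12.5 and 15.4% of their cord medians.

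On the higher side Kcnk18, a tandem-pore channel known from sensory neurons of the trigeminal and dorsal root ganglia, had 7.99 CPM in library 23 against a median of 0.0630 CPM and a maximum of 0.270 CPM in the cords, a ratio of 127 to that median. Kcnmb1, the auxiliary subunit known from smooth muscle, had 53.2 against 1.41 CPM, a ratio of 37.8. Kcnj4, Kcnv1, Kcnn4 and Kcng3 had ratios of 25.7, 19.2, 18.7 and 16.4 to the cord median. Kcnb2 had 249.96 CPM against 21.2 CPM (ratio 11.8) and Kcnd1 210 against 28.2 CPM (ratio 7.43). Kcnh6, Kcns1, Kcnh7 and Kcnip2 had ratios of 8.57, 7.95, 7.18 and 6.53. Silent subunits were past the limit above in 4 of 9 cases, among them Kcnv1 and Kcng3, and below in 2, Kcng4 and Kcng1. Of these, Kcng3 was included only through its level in library 23.

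Kcna1 and Kcna2 lay inside the cord range. Kcna1 had 186 CPM in library 23 (82.1% of the median cord) and Kcna2 704 CPM (90.7%). Per kilobase, the leading members of library 23 were Kcnab2 at 163, Kcnip3 at 79.1 and Kcna2 at 59.1 CPM per kilobase, and Kcnj10 ranked 20.

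**Figure D5:**
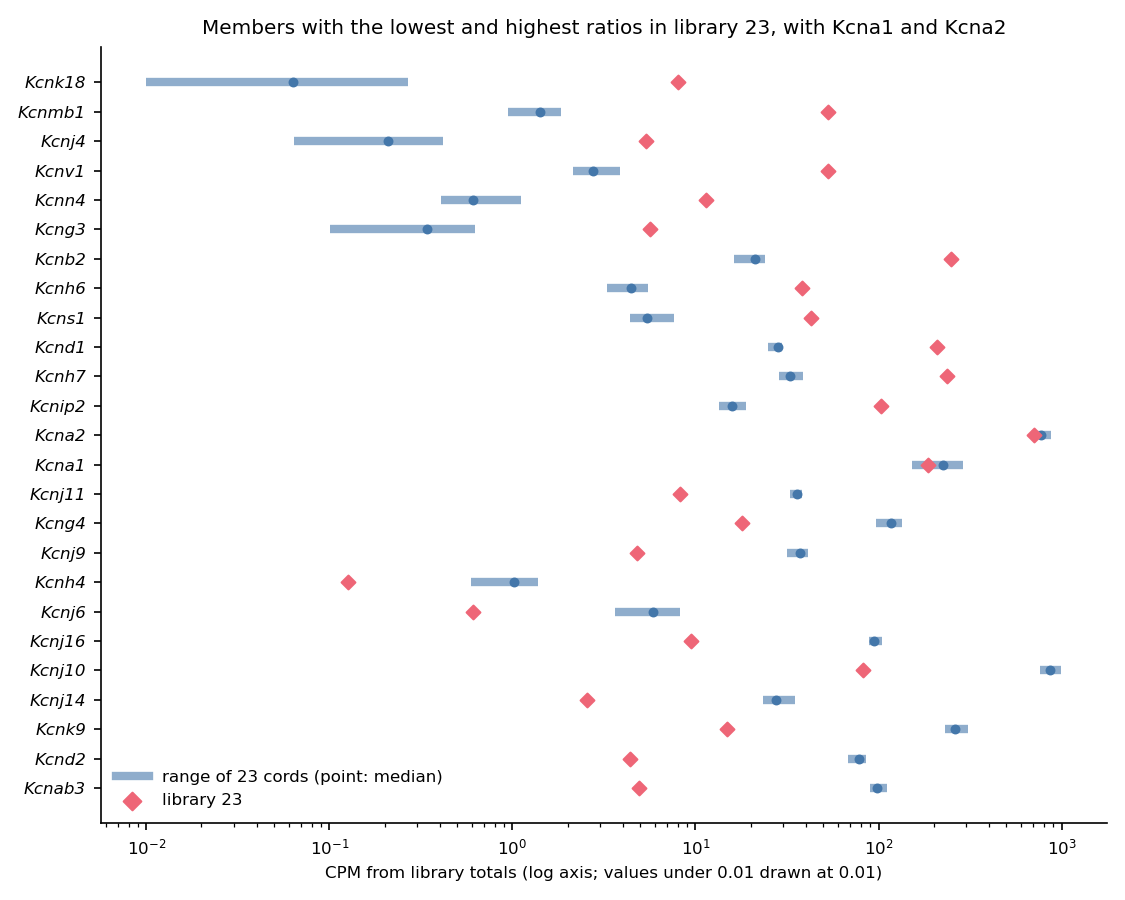
Members reported among the 12 highest and the 12 lowest ratios of library 23 (diamonds) to the median of 23 cords (points, with bars from the lowest to the highest cord), plus Kcna1 and Kcna2, in CPM from library totals on a log axis. Kcnk18 at the top has a ratio of 127 and Kcnab3 at the bottom stands at 5.02%, while Kcna1 and Kcna2 fall within the bars.

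Genes that work alongside the channels were counted from lists. Of 10 subunits and regulators of the sodium-potassium pump, which restores the potassium gradient, 0 passed in any comparison. For paclitaxel over all animals 9 were on the positive side, with a median of 0.040, and the smallest p belonged to Fxyd7, a regulator, at 0.11 on the log2 scale (edgeR adjusted p 0.238). Of 5 cation chloride cotransporters and 4 hyperpolarization-activated HCN channels 0 passed, with the cotransporter Slc12a2 at -0.051 (edgeR adjusted p 0.579). Of 20 auxiliary, anchoring and juxtaparanodal partners 0 passed. For paclitaxel in wild-type mice 17 of the 20 were on the negative side (median -0.049), and in knockout mice 6 (median 0.024), which was not tested as a difference over the list. In wild-type mice 6 of 6 oligodendrocyte markers (median -0.11), 6 of 6 microglia markers (median -0.11) and 5 of 6 astrocyte markers (median -0.076) were also on the negative side, and in knockout mice 2, 2 and 3 of 6 were. Schwann cell, endothelium, mural cell, oligodendrocyte precursor and muscle markers were mostly negative in wild-type mice too. Neuronal lists there were mostly positive: 5 of 6 neuron markers (median 0.016), 4 of 6 motor neuron markers (0.079) and 4 of 7 sensory neuron markers tested (0.068). Oligodendrocyte markers summed to 25445 to 27644 CPM with vehicle and 24142 to 27295 CPM with paclitaxel in wild-type mice, and to 25340 to 27506 and 23785 to 28361 CPM in knockout mice. Microglia markers summed to 212 to 268 and 202 to 234 CPM in wild-type and to 195 to 238 and 212 to 258 CPM in knockout mice. Their part in the partners' values was not tested. Dpp10, a partner of Kcnd channels, had the smallest p of them over all animals, at -0.070 (edgeR adjusted p 0.420). Of 7 astrocyte partners of potassium and water uptake, 0 passed, and the water channel Aqp4 had -0.11 (edgeR adjusted p 0.466).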

How the data were processed

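RNA-seq counts of whole lumbar cord were used. The deposited table holds raw counts per gene that the authors made with featureCounts 1.6.2 over exons. Per the file headers, counts were grouped by gene name on Ensembl GRCm38 release 96, unstranded and with no pair option. Strand therefore did not separate reads of overlapping or antisense genes. How reads in shared exon bases were assigned was not examined, so levels of members with such bases are less certain. The submitters' processing notes also name STAR, and no source used here gives its version. Library totals give the depth, and 3 counts were taken as the floor of detection. The members, gene lists and tests were chosen with earlier results of these data known.

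Counts of 23 cords were fitted in edgeR 4.0.16 (R 4.3.3) with filterByExpr over the 8 groups, TMM scaling, 1 mean per group and the robust quasi-likelihood test. P-values were adjusted by Benjamini-Hochberg over all 25372 genes, with calls under 0.05. The SE given with an edgeR log2FC is the size of that log2FC divided by the square root of the test's F statistic. The pipeline was tested on simulated data with planted changes larger than most differences named here, so recovery of the smaller ones was not tested. Alternatives were DESeq2 1.42.0, its size factors, limma voom 3.58.1 and edgeR without robust estimation (the last 2 chosen after seeing the data), no filter, all 24 libraries, a replicate block, only the groups compared, and each cord left out. Pair correlations used 100000 permutations. Named genes were the 15 highest per kilobase, the top 2 of each subfamily, members of the pairs, those of smallest p per comparison (8 for treatment and for genotype over all animals, otherwise 5) and 12 at each end for library 23; some of these are not reported here. Other members named with values, such as Kcna3, Kcna10 and Kcnk3 among the levels and Kcnj11 by sex, were chosen after their values were seen.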

Additional observations from a re-analysis of the deposited data

Results flagged for a closer look

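Among 28 sets of animals for 7 members, 1 held a cord far from the others. Kcnmb2 in wild-type male paclitaxel replicate 2 stood at 4.53 CPM, while the other wild-type paclitaxel cords stood at 5.82 to 6.29 CPM, a gap of 0.735 of the range (n = 5). Chance gives about 1 such set in 20 groups. That animal was also the lowest cord for Kcna1, Kcna2 and Kcnq3.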

How the results depend on the processing

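Counts of potassium channel genes called were 0 in all 8 comparisons with edgeR on 23 cords, on all 24 libraries, with DESeq2 size factors and without robust estimation, and with limma voom. DESeq2 called 1 over all animals for paclitaxel (Kcna1) and 1 in knockout mice (Kcnmb2). Without a filter on low counts edgeR called 2 for paclitaxel over all animals, 2 in wild-type and 4 in knockout mice, 1 for knockout against wild-type over all animals, 1 under vehicle, 1 under paclitaxel and 1 for sex (Kcna1, adjusted p 0.0137). The treatment calls were Kcna1 and Kcnj6 over all animals and in wild-type mice, and Kcna1, Kcnmb2, Kcnb2 and Kcnk12 in knockout mice. For Kcna1, Kcnj6 and Kcnk12 the SE was smaller without the filter than with it, and for Kcnmb2 and Kcnb2 it was larger. The cause was not tested. Leaving out each cord gave 0 to 1 called in knockout mice for paclitaxel, the 1 without knockout male vehicle replicate 1, and 0 in the other comparisons. Over all genes, calls for paclitaxel over all animals were 5 with edgeR, 167 with DESeq2, 338 without the filter and 2 to 62 with a cord left out. In wild-type mice they were 0, 4, 254 and 0 to 4, in knockout mice 6, 137, 470 and 0 to 332, and for sex 233, 583, 749 and 65 to 324.

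Over 77 same-number correlations the median was 0.00055 (from -0.23 to 0.27, 12 over 0.1), against -0.0027 for the others. Of 23 cords, 11 were best with their own number. Whether replicate numbers pair the cords was not tested. With the replicate block 0 members were called in each comparison and 9 genes for paclitaxel over all animals. Under the replicate block the log2 fold change of Kcnj10 for genotype was 0.0024 and the Kcna1 interaction 0.0057.

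With all 24 libraries several log2 fold changes turned sign. For paclitaxel over all animals Kcng3 was 0.027, Kcnb2 0.43 and Kcnab3 -0.071, and in wild-type mice Kcng3 was 0.78. Kcnj10 was 0.13 for genotype and 0.046 for sex, Kcnd1 -0.81 under paclitaxel and -0.74 for the interaction, Kcna1 0.036 for the interaction, and Kcnj9 and Kcnj3 0.036 and 0.011 for sex. Values near 0 also turned: Kcnj10 for genotype was 0.00036 with limma voom, and the Kcna1 interaction was 0.00058 with DESeq2, 0.00059 with its size factors and 0.0015 with limma voom. Leaving out 1 cord moved Kcnj10 for genotype between -0.018 and 0.022, the Kcna1 interaction between -0.078 and 0.076 and the Kcna2 interaction between -0.0025 and 0.058. Fits of only the groups compared were not run for the comparisons that use all groups, where they are the same fit. With 3 animals a group, members under 1 CPM are limited by depth.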
